A study of Rattus norvegicus with 18 samples.

Results

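The peaks described here are those of genes that carry many N6-methyladenosine (m6A) peaks at once: every peak of 1 or 2 blocks (aligned stretches of a spliced peak) on a gene with 6 or more rows in the deposited bufalin peak list. There were 970 such peaks, 9.83% of the 9866 peaks in that list, on 143 genes, 2.79% of the 5122 genes with any peak. The same 143 genes had 1022 of the 9170 peaks in the deposited periplocin list. The study profiled H9c2 cells, a line of rat heart myoblasts labelled wild type, after bufalin or periplocin and in a group labelled control, by m6A immunoprecipitation followed by sequencing (MeRIP-seq). Bufalin is a bufadienolide from toad venom and periplocin a cardenolide glycoside from a plant, and both belong to the cardiotonic steroids that inhibit the sodium pump. Each of the bufalin, periplocin and control groups had 3 immunoprecipitated (IP) and 3 input libraries, 18 in all, but the deposited tables give a single value of each kind for a gene or peak. Dose and time of treatment were not in the labels used here, and nothing in the labels says whether replicates were separate cultures, so the authors' p-values may measure technical spread only.

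m6A is a methyl mark placed on nuclear RNA by a writer complex built around Mettl3 and Mettl14, removed by the demethylases Fto and Alkbh5 and bound by proteins of the YTH family. It is known to lie mostly near stop codons and in long internal exons, and less often close to exon junctions. It is known for shortening the life of many mRNAs in the cytoplasm. In MeRIP-seq a peak is a stretch where IP reads exceed input reads, the excess is given as fold enrichment, and the m6A change is the log2 difference of that enrichment between treated and control cells.

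The number of rows chose the members, so row counts and enrichment are given as a description and no test was made on them. Rows per gene ranged from 6 to 27 with a median of 7. Of the 143 genes, 65 had exactly 6 rows, 30 had 7 and 48 had 8 or more. The 65 genes just inside the threshold held 336 member peaks with a median fold enrichment of 1.88, and the 126 genes with 5 rows held 512 peaks of 1 or 2 blocks with a median of 1.80. By their strongest peak the leading genes with 6 rows were Zfp292 (fold 6.72), Nemf (5.14, in a peak of more than 2 blocks) and Arfgef1 (4.0), and those with 5 rows were Nfe2l1 (7.45), Kmt2e (5.33) and Tpp2 (5.0).

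**Figure D1:**
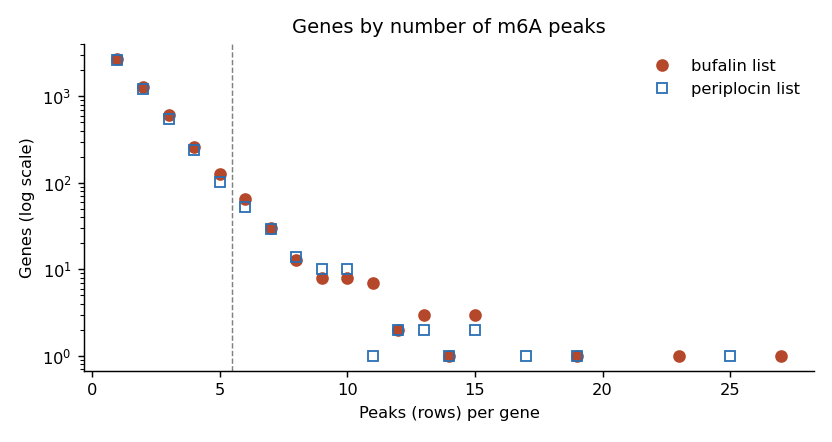
Number of genes (log scale) against peaks per gene in the bufalin list (filled circles) and the periplocin list (open squares); the dashed line marks the threshold of 6. In the bufalin list 2711 genes had 1 peak, 143 lay right of the line and 1 reached 27.

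The genes with the most rows encode long proteins. Ahnak, a giant scaffold under the plasma membrane, had 27 rows in the bufalin list. Macf1, which links actin to microtubules, had 23, and Cenpf, a kinetochore protein, had 19. Akap9, which anchors protein kinase A at the centrosome and Golgi, Golgb1, the Golgi tether giantin, and Mki67, the proliferation marker that coats mitotic chromosomes, had 15 each. Fat1, a giant cadherin, had 14. Dst, a linker of the plakin family like Macf1, Prrc2c, an RNA-binding protein of stress granules, and Vcan, the matrix proteoglycan versican, had 13 each. Akap13, an anchor of protein kinase A, and Son, a splicing factor of nuclear speckles, had 12 each.

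Ahnak's 27 peaks lay within 16.3 kb of chromosome 1 on the plus strand (rn6, chr1:225197495-225213766) and together covered 7623 bases. From 5′ to 3′ their fold enrichment in the bufalin list was 2.16, 1.61, 1.77, 3.06, 2.71, 2.59, 2.13, 2.44, 2.47, 2.16, 2.52, 1.87, 1.76, 2.91, 2.15, 2.51, 3.28, 1.63, 2.0, 2.57, 2.15, 1.34, 1.82, 2.77, 2.78, 1.94 and 2.29. High and low values were mixed along the whole run, with no end of the gene standing above the other. The strongest, chr1:225207153-225207253, had a fold enrichment of 2.89 in the periplocin list.

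Macf1's peaks were spread over 131 kb of the minus strand (rn6, chr5:141063249-141193998). The fold enrichment of its 21 members was 1.48, 1.21, 2.02, 2.06, 1.29, 2.23, 2.22, 1.60, 2.26, 1.65, 2.29, 2.0, 1.86, 3.08, 1.15, 1.19, 1.52, 1.52, 1.47, 1.26 and 1.34 from 5′ to 3′. The highest values stood in the middle of the gene, and the 7 most 3′ members were all at or under 1.52. The strongest, chr5:141118678-141118928, had 3.14 in the periplocin list.

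Cenpf's 18 members, over 36.1 kb of the minus strand (rn6, chr13:108139130-108175274), had fold enrichments of 1.82, 1.98, 2.21, 1.46, 1.95, 2.37, 1.62, 2.37, 2.0, 2.03, 1.60, 1.85, 1.32, 3.20, 2.25, 1.77, 2.24 and 2.12. The densest stretch of the gene held 9 rows inside 5 kb. The lowest value, 1.32, stood directly before the highest, 3.20 at chr13:108142832-108142982, which had 3.06 in the periplocin list. Akap9's 12 members, over 93.8 kb of the minus strand (rn6, chr4:27209813-27303632), had 1.99, 2.36, 2.02, 2.28, 2.26, 1.20, 1.44, 1.56, 1.84, 1.69, 2.93 and 1.79. Its first 5 lay between 1.99 and 2.36, the next 5 between 1.20 and 1.84, and the strongest was the member before the last. That peak, chr4:27225079-27225278, had 3.33 in the periplocin list.

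**Figure D2:**
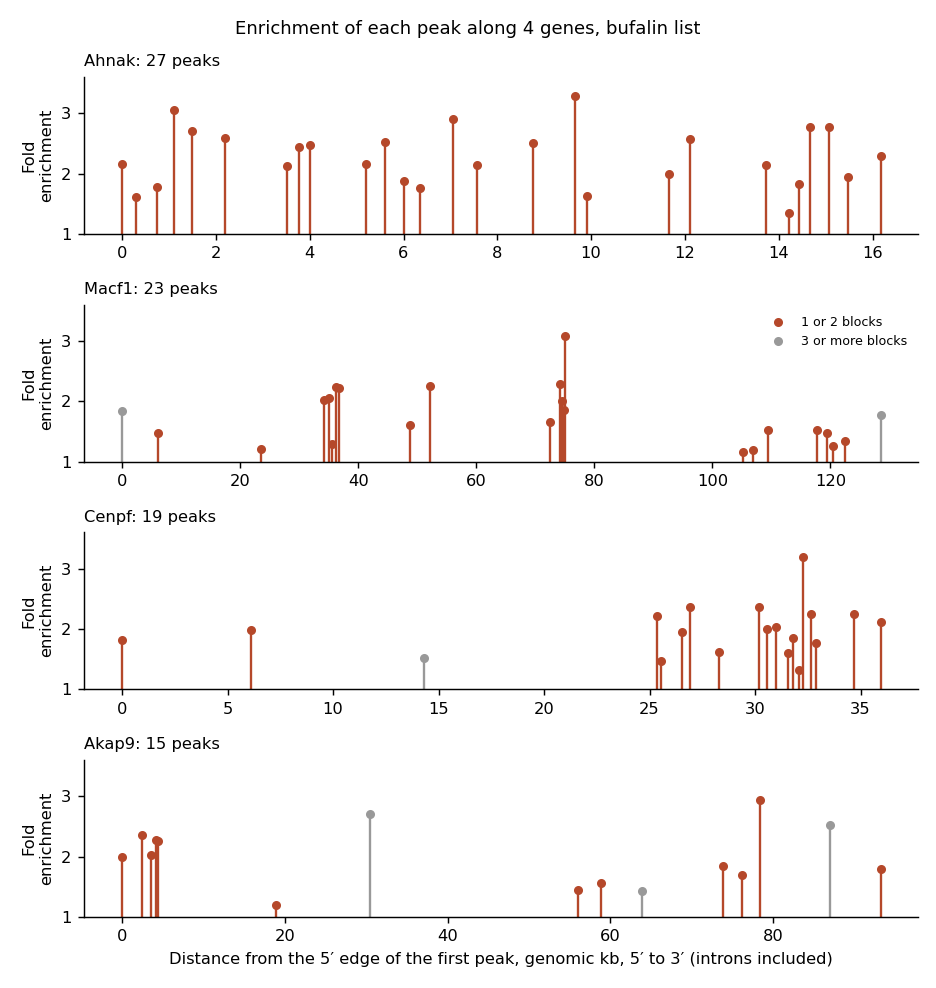
Fold enrichment (IP over input) of every peak of Ahnak, Macf1, Cenpf and Akap9 in the bufalin list against its genomic distance in kb from the first peak, 5′ to 3′; grey marks peaks of 3 or more blocks, which are no members. The highest values, 3.28, 3.08, 3.20 and 2.93, are all inner peaks, as are all but the end peaks of each gene.

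The distance between neighbours follows in part from the choice of genes with many rows, so it too is a description. Of 981 pairs of neighbouring rows, 519 (52.9%) lay within 1000 bases of each other, beside 39.6% of 3763 pairs on genes with 2 to 5 rows. The median gap was 796 bases, beside 2149 on genes with 2 to 5 rows. No pair overlapped, and the smallest gap was 98 bases. Exactly 157 pairs (16.0%) had a gap of 98 or 99 bases. With rows at most 100 bases apart joined, 103 of the 143 genes kept 6 or more loci, and with rows at most 200 bases apart joined 79 did. Golgb1 and Vcan had the densest stretch, 10 rows inside 5 kb. The whole run of rows spanned 3.29 kb to 1559 kb per gene, introns included, with a median of 43.5 kb.

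Member peaks were mostly short and of moderate enrichment. The median fold enrichment was 1.89 for the 970 members (range 1.09 to 6.72), 1.79 for the 2230 peaks of 1 or 2 blocks on genes with a single row, and 1.82 for the whole list. A fold enrichment of at least 2 was reached by 421 members (43.4%), by 791 (35.5%) of the peaks on single-row genes and by 37.3% of the whole list. In the periplocin list the corresponding medians were 1.88 for peaks of 1 or 2 blocks on the same 143 genes and 1.77 for those on single-row genes. A single block made up 707 members, with a median fold of 1.97, and 2 blocks made up 263, with a median of 1.76. The 328 members of 100 or 101 bases had a median fold of 1.62, the 459 longer ones of up to 300 bases 1.93 and the 177 over 300 bases 2.42. The other 6 members, of 99 bases, are in none of these length classes.

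Within a gene the peaks differed in enrichment. The strongest member had a median of 1.87 times the enrichment of the weakest (range 1.07 to 4.83, 142 genes with at least 2 members), and in 53 genes the ratio was 2 or more. Such a ratio grows with the number of peaks compared, and the genes were chosen for having many rows. It is therefore a description and does not show that peaks differ more within these genes than elsewhere. The strongest row was an inner one in 100 genes, the most 5′ row in 22 and the most 3′ row in 21. Inner rows made up 838 of the 1124 rows, beside 143 at each end, so this count follows in part from the choice of genes. Median fold enrichment was 1.82 for the most 5′ rows, 1.94 for inner rows and 1.93 for the most 3′ rows. Rows of 3 or more blocks, which cross several exon junctions and were not members, made up 21.7% of the most 5′ rows, 12.3% of inner rows and 14.0% of the most 3′ rows.

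The periplocin list held most of the same peaks. Of the 970 members, 843 (86.9%) shared at least 1 base with a periplocin row on the same strand, against 1750 (78.5%) of the peaks on single-row genes and 83.0% of the whole bufalin list, and 458 members had the same start, end and blocks. Both lists come from comparisons with the same control group, so this overlap is a description. The 143 genes had 1124 rows of any block count in the bufalin list and 1022 in the periplocin list. Per gene, 69 had more rows in the bufalin list, 52 the same number and 22 fewer, in genes that were chosen on the bufalin list. Vcan and Prrc2c each had 13 rows in the bufalin list and 8 in the periplocin list, while Golgb1, Mki67, Fat1 and Dst had the same number in both.

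Under bufalin 1 of the 970 members, a short peak of Rere, fell in m6A, and under periplocin no peak of these genes passed the test. In the authors' deposited bufalin table the median log2 m6A change was -0.02 over the 970 members, with 440 above 0 and 528 below, against -0.01 over the peaks of single-row genes and -0.02 over the whole list. The table does not name the direction of this column, which is taken here as treated minus control on the log2 scale. At a false discovery rate (FDR) under 0.05 the authors' deposited bufalin table called 1 member, where 0.0304% of all peaks were called in either direction and 0.0101% lower. At an unadjusted p under 0.05 it held 24 members, 2.47% of them, against 3.04% of all peaks. Of these, 8 were higher, where 0.770% of all peaks in the authors' deposited table were, and 16 lower, where 2.27% were.

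The called peak was in Rere, a nuclear corepressor named for its arginine and glutamic acid repeats. It lay at chr5:167657722-167657822 (rn6, plus strand), 101 bases long, the fourth of 7 rows, with a fold enrichment of 1.40. Its log2 m6A change was -1.27 in the authors' deposited bufalin table, with an unadjusted p of 1.02e-05 and an FDR of 0.0339 from the peak comparison. In the authors' deposited periplocin table the row at the same position had a fold enrichment of 1.79 and a change of -0.68, with an unadjusted p of 0.0170 and an FDR of 1. The other 5 members of Rere had changes of -0.02, 0.18, -0.00, -0.04 and 0.01 from 5′ to 3′ in the authors' deposited bufalin table. The value 0.18 belonged to the neighbour that ends 98 bases upstream, at chr5:167657324-167657623. Rere mRNA itself was not called, with a log2 change of 0.19 ± 0.07 (SE) and an adjusted p of 0.323 from DESeq in the authors' deposited bufalin table.

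Short peaks carried the widest values. In the authors' deposited bufalin table the SD of the m6A change across members was 0.31 for peaks of 100 or 101 bases, 0.23 for longer ones of up to 300 bases and 0.13 over 300 bases. In that authors' deposited table a change larger than 1 in size was found in 4 members (0.412%). It was found in 0.942% of the peaks of 1 or 2 blocks on single-row genes and in 0.720% of the whole list. The 4 members were in Akap6 (-1.36), Rere (-1.27), Prrc2c (-1.13) and Dmd (-1.02). These genes are named here because they passed that size, and all 4 peaks were 100 or 101 bases long. Among the shortest members the 8 with an unadjusted p under 0.05 in that authors' deposited table were all lower. They were 2.44% of the 328 shortest members, near the 2.27% of all peaks that were lower. Among longer members of up to 300 bases 5 were higher and 5 lower (2.18% in either direction). Among the longest 3 were higher and 3 lower (3.39%), where 3.04% of all peaks were in either direction.

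**Figure D3:**
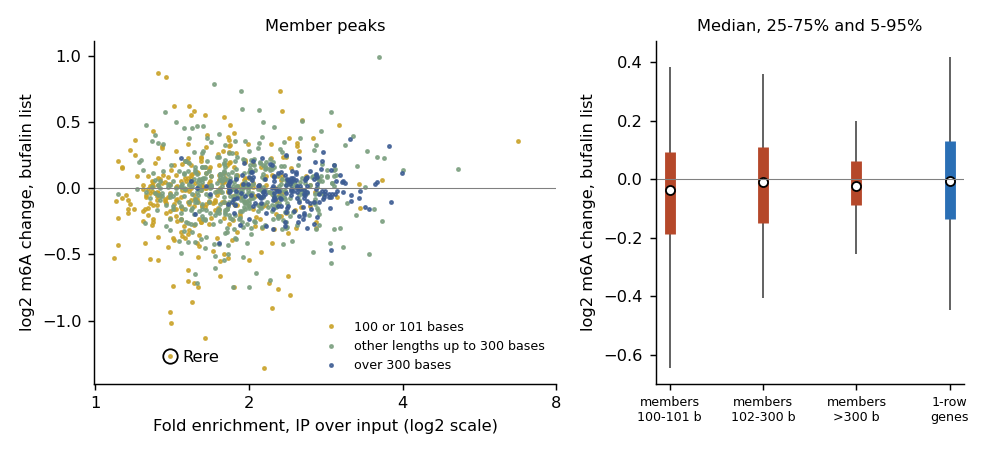
Left, log2 m6A change in the authors' deposited bufalin table against fold enrichment (log2 axis) for the 970 members, coloured by peak length, with the called Rere peak ringed at -1.27. Right, median (circle), 25th to 75th percentile (thick bar) and 5th to 95th percentile (line) of the change for members by length (without the 6 of 99 bases) and for peaks of 1 or 2 blocks on single-row genes; the spread narrows as peaks lengthen.

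The 1022 rows of the same genes, of any block count, had a median change of -0.02 in the authors' deposited periplocin table, with 462 above 0 and 560 below. The median was -0.01 over the rows of the single-row genes and -0.01 over the whole list. Limited to 1 or 2 blocks, it was -0.0136 over 879 rows of the same genes and -0.00533 over those of the single-row genes. None passed an FDR of 0.05, where 0.0436% of all periplocin peaks did in either direction, 0.0109% with lower values. An unadjusted p under 0.05 was reached by 38 (3.72%), against 3.79% of the rows of the single-row genes and 3.37% of all peaks in the authors' deposited table. Among rows of 1 or 2 blocks the shares were 4.10% for the same genes and 3.25% for the single-row genes. Of the 38, 16 were higher (1.47% of all peaks were) and 22 lower (1.90% of all peaks were). The lowest FDR was 0.187, for a peak of Spen, a transcriptional corepressor, at chr5:160026114-160026464 (rn6) with a change of 0.45 in the authors' deposited periplocin table.

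Changes within a gene were mostly of mixed sign. Of the 137 genes with at least 4 members, 131 had changes of both signs in the authors' deposited bufalin table. Over all members 45.4% of changes were above 0 there. Both signs are therefore likely in any group of several peaks, and the count is a description. The SD of the change within a gene had a median of 0.20 over the 137 genes in that authors' deposited table. Of the other 6 genes, Plec had every member above 0 and Aff4, Gon4l, Sos1, Baz1b and Uaca every member below 0; these genes were singled out after their values were seen. The 11 members of Plec, the cytolinker plectin, ran from 0.02 to 0.36 with a median of 0.13 in the authors' deposited bufalin table. In the authors' deposited periplocin table the medians of these 6 genes were 0.11 for Plec, -0.15 for Gon4l, -0.06 for Sos1, 0.01 for Aff4, 0.01 for Baz1b and 0.03 for Uaca, and both tables share the control group. Ahnak had 19 members above 0 and 8 below, between -0.18 and 0.28, in the authors' deposited bufalin table, and a median of -0.01 in the authors' deposited periplocin table. Cenpf ranged more widely in the authors' deposited bufalin table, from -0.52 to 0.39, and its strongest peak had the highest value, beside 0.40 in the authors' deposited periplocin table. None of these peaks passed the FDR threshold.

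The RNA of the 143 genes was well covered. Their mean normalised read count had a median of 7326 in the authors' deposited bufalin RNA table (range 926 to 126666), against 1406 for genes of a single row with a mean of at least 10. These counts are not divided by transcript length, so they show read depth and not relative level. In the authors' deposited bufalin RNA table the median log2 RNA change was 0.06 over the members, with 111 of 143 (77.6%) above 0, against 0.00 and 51.2% over 2699 genes of a single row. For periplocin the median in the authors' deposited RNA table was 0.04, with 101 (70.6%) above 0, against -0.00 and 48.9% over 2700 genes of a single row. Both comparisons use the same control libraries. Values above 0 in these bulk libraries cannot tell more RNA per cell from a shift in the share of cells.

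Read depth moves with the number of peaks, so the same values were taken inside the middle range of the members' mean counts. For bufalin this range was 4006 to 14856. Inside it the authors' deposited bufalin RNA table gave a median log2 change of 0.05 with 78.9% above 0 for 71 members, 0.01 with 54.5% for 440 single-row genes, and -0.00 with 47.8% for 408 genes without a row. Between 3843 and 15120 mean counts the authors' deposited periplocin RNA table gave 0.05 with 74.6% above 0 for 71 members, -0.00 with 49.7% for 447 single-row genes, and -0.02 with 41.2% for 422 genes without a row. The shift was under 0.1 on the log2 scale in each case. Gene length was not used here, and its part in the shift was not tested.

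**Figure D4:**
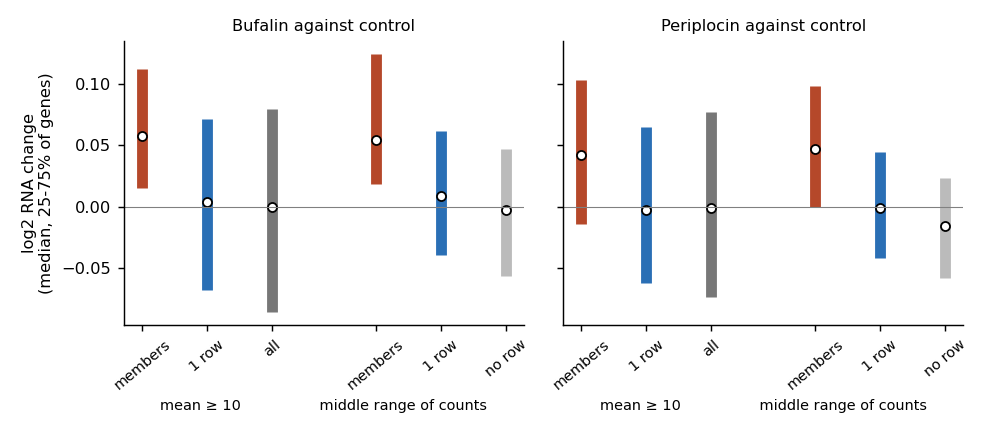
Median (circle) and 25th to 75th percentile (bar) of the log2 RNA change in the authors' deposited tables for member genes, genes of a single row and all genes with a mean count of at least 10, and for member genes, single-row genes and genes without a row inside the middle range of counts. The member genes' median is 0.06 for bufalin and 0.04 for periplocin. Inside the middle range of counts it is 0.05 for each compound, and the sets other than members lie near 0.

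Under bufalin 2 member genes rose. At an adjusted p under 0.05 from DESeq, the authors' deposited bufalin RNA table called Crebbp and Myh1 higher and no member lower, where 0.301% of all genes with an adjusted p were called in either direction and 0.181% higher. An adjusted p was given there for 130 of the 143 members, and the rest could not be called. At an unadjusted p under 0.05 the authors' deposited bufalin table held 21 members that were higher, where 3.04% of all genes with a p were, and 2 that were lower, where 1.96% were. Inside the middle range of counts the background in the authors' deposited bufalin table was higher: 13 of 71 members (18.3%) were higher and 0 lower at that level, against 119 of 1579 genes (7.54%) higher and 3.10% lower. No member inside that range was called at a DESeq adjusted p under 0.05, against 0.190% of all genes there, so both called genes lie outside it. Crebbp, the CREB-binding histone acetyltransferase, averaged 3548 normalised counts in bufalin-treated cells and 2898 in control cells, as computed from the authors' deposited mean and fold change. Its log2 change was 0.29 ± 0.07 (SE), with a DESeq adjusted p of 0.00946, in the authors' deposited bufalin table, against 0.18 ± 0.06 and an adjusted p of 0.318 in the periplocin table. Myh1, a fast skeletal myosin heavy chain, averaged 2696 in bufalin-treated cells and 1951 in control cells by the same computation. Its log2 change was 0.47 ± 0.11 (SE), with a DESeq adjusted p of 0.0130, in the authors' deposited bufalin table, and -0.24 ± 0.11 with 0.658 in the periplocin table. Reads of near-identical myosin genes may be shared with Myh1, and how such reads were assigned was not described. The difference between the compounds was not tested.

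Under periplocin 6 member genes rose and none fell, where 0.538% of all genes with an adjusted p were called in either direction and 0.514% higher in the authors' deposited periplocin RNA table. At an unadjusted p under 0.05 that authors' deposited table held 34 members, 23.8% of them, against 6.25% of all genes with a p. Of the 34, 29 were higher, where 4.09% of all genes were, and 5 lower, where 2.15% were. Inside the middle range of counts the shares in the authors' deposited periplocin table lay closer together, with 19.7% of 71 members at an unadjusted p under 0.05, against 15.2% of single-row genes and 13.7% of all genes. By direction, 15.5% of the 71 members were higher and 4.23% lower, against 9.10% and 4.64% of all genes there. Among genes without a row 3.55% were higher and 6.16% lower. At a DESeq adjusted p under 0.05, 1 of the 71 members (1.41%) was called there, against 22 of 1613 genes (1.36%) in the authors' deposited table, a share near the background. Of the 6 called genes, 5 are giant linkers or scaffolds. Ahnak averaged 142048 normalised counts in periplocin-treated cells and 120310 in control cells, as computed from the authors' deposited mean and fold change. Its log2 change was 0.24 ± 0.04 (SE), with a DESeq adjusted p of 5.04e-06, in the authors' deposited periplocin table. In the same authors' deposited table Plec changed by 0.28 ± 0.05 (DESeq adjusted p 3.84e-06), Dst by 0.19 ± 0.04 (8.17e-05), Macf1 by 0.16 ± 0.03 (0.000766) and Akap9 by 0.16 ± 0.04 (0.0321). The sixth was Pik3c2a, a class II phosphoinositide 3-kinase of clathrin-coated pits, with 0.23 ± 0.06 (DESeq adjusted p 0.0234) in the authors' deposited table. As folds these changes ran from 1.12 for Macf1 and Akap9 to 1.22 for Plec. None of the 6 was called in the authors' deposited bufalin table, where the log2 change was 0.14 ± 0.07 for Pik3c2a, 0.11 ± 0.06 for Akap9, 0.07 ± 0.07 for Dst, 0.07 ± 0.06 for Macf1, 0.06 ± 0.08 for Ahnak and -0.00 ± 0.21 for Plec. The unadjusted p there was 0.0440 for Pik3c2a, and the difference between the compounds was not tested for any of the 6. Without the giant linkers and scaffolds 1 call, Pik3c2a, remained.

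**Figure D5:**
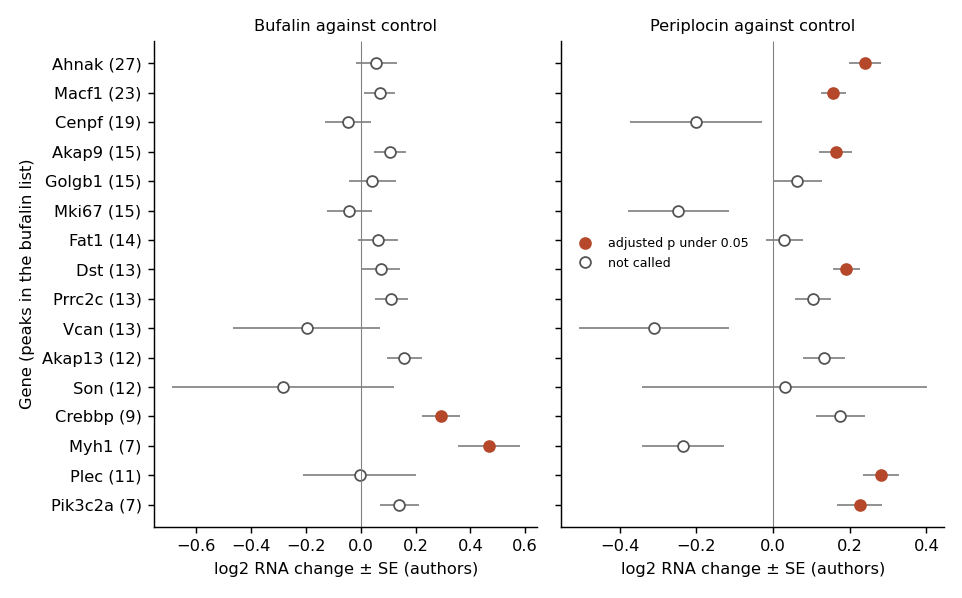
Log2 RNA change with SE in the authors' deposited tables for the 12 genes with the most peaks and for every called member gene (peak count in brackets), bufalin left and periplocin right. Filled points have an adjusted p under 0.05: Crebbp and Myh1 for bufalin, and Ahnak, Macf1, Akap9, Dst, Plec and Pik3c2a for periplocin.

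The members were also counted in lists of genes by function, chosen with results of these data known and in part for the length of their proteins, so the counts describe the lists and test nothing. Of all 10679 genes with a mean count of at least 10 in the bufalin RNA table, 1.34% were members. Of 22 giant cytoskeletal linkers and scaffolds measured, 13 had 6 or more peaks, led by Ahnak, Macf1, Akap9 and Dst, and their 142 member peaks had a median fold enrichment of 1.95. Of 24 histone methyltransferases and chromatin regulators, 11 were members and the other 13 had 1 to 5 rows. They were led by the remodeller Chd7 with 11 rows, the histone methyltransferase Ash1l with 10, and Crebbp and the histone methyltransferase Setd2 with 9 each. There were 6 members among 25 zinc finger transcription factors, led by Hivep2 with 10 rows and Prdm2 with 9, followed by Zfp217 and Zfp292 with 6 each. The deubiquitinase Usp34 with 8 rows and the ubiquitin ligase Trip12 with 7 were the members among 9 large ubiquitin enzymes. Fat1, Vcan and the receptor Notch2 were the members among 25 matrix and cell surface proteins. Cenpf, Mki67 and the spindle protein Aspm led 4 members among 12 genes of mitosis and genome maintenance.

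Of 20 m6A writers, erasers and readers, 15 had 1 to 5 rows and 1, the writer cofactor Zc3h13, was a member with 8 rows in each list. Its RNA was not called, at 0.15 ± 0.05 (SE) with a DESeq adjusted p of 0.245 in the authors' deposited bufalin table. None of the 11 sodium pump subunits, the targets of cardiotonic steroids, had a row, but only 6 of them had a mean count of at least 10 in the bufalin RNA table. Of 22 ribosomal protein genes, which have short mRNAs, 16 had no row and 6 had 1 to 5. In RNA, the authors' deposited periplocin table called 5 of the 22 giant linkers higher and none lower, and the authors' deposited bufalin table called Crebbp alone among the 24 chromatin regulators. The authors' deposited periplocin table also called 1 gene higher among the large ubiquitin enzymes (Ubr4) and 1 among the chromatin regulators (Baz2a), neither a member, and both are named here because they were called. No member of the zinc finger, ubiquitin, surface, mitosis or m6A lists was called in either authors' deposited RNA table at a DESeq adjusted p under 0.05. In the bufalin table Zfp217, Zfp644 and Brca2 had no adjusted p, so they could not be called there. Of the 16 members of these lists, an unadjusted p under 0.05 was reached by 2 with higher values (Hivep2 and Zc3h13) in the authors' deposited bufalin table and by 1 with a lower value (Aspm) in the periplocin table. Among the 13 member linkers 9 were higher and 0 lower at that unadjusted level in the authors' deposited periplocin table, where 4.09% of all genes and 9.10% of those inside the middle range of counts were higher. Linkers such as Ahnak (mean count 131179) and Dst (56071) lay above that range and Dmd (2463) below it, so neither share matches their read depth. Of these linkers, 2 were higher and 1 lower in the authors' deposited bufalin table. Among the 11 member chromatin regulators 5 were higher and 0 lower in the authors' deposited bufalin table, where 3.04% of all genes and 7.54% of those inside the middle range were higher. Of these regulators, 2 were higher and 0 lower in the authors' deposited periplocin table. The lists were chosen with results of these data known, so the counts are a description.

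The labelled cell type was checked in the authors' deposited tables. In the bufalin RNA table the mean normalised count was 72405 for the mesenchymal filament gene Vim, 4293 for the cardiac troponin gene Tnnt2, 1037 for the muscle filament gene Des, 716 for Myod1 and 309 for Gata4. The cardiac regulator Nkx2-5 was at 80.4, the late muscle regulator Myog at 12.1 and Myf5 at 0. The endothelial genes Pecam1 and Cdh5 were at 3.89 and 4.52 and Kdr at 0. Of the leukocyte genes, Ptprc was at 1.06, Cd3e at 26.4 and Cd68 at 79.6, and their part in the results was not tested. The epithelial genes Epcam, Cdh1 and Krt18 were at 0 in that table. One member gene, Myh9l1, has both its members on bases shared with rows of another gene name, so its peaks cannot be assigned to 1 gene.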

How the data were processed

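For each compound against control there was a peak list and an RNA table. The tools named in the submitters' processing notes are HISAT2, StringTie and DESeq, and the build is rn6. Neither versions nor a peak caller are given in the labels. Per the file headers, the deposited peak lists give a fold enrichment, log10 p-values and FDRs as the authors wrote them, and a log2 m6A change. Per the file headers, the deposited RNA tables give a mean of normalised counts (a signal, not raw counts), a log2 fold change, its SE, a test score and p-values with an adjusted p. Totals per library were not used here, so depth is unknown and no interval on counting was made. No label says whether input or IP reads gave the RNA tables.

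From these, rows per gene were counted, peaks were overlapped block by block on the same strand, and gaps were measured between neighbouring rows (Python 3.11.15, pandas 2.3.3), after testing on simulated data. Calls use an FDR or adjusted p of 0.05, and RNA medians need a mean of at least 10. The direction of the RNA tables was checked by recomputing control means: taking both changes as treated relative to control, these coincided within 1%, after a constant offset of 0.05 on the log2 scale was removed, in 10608 of 10608 genes, and with the periplocin table reversed in 1158. In the periplocin RNA table the test score had the opposite sign to the log2 change in 12913 of 12913 genes. In the bufalin RNA table the signs were the same in 12881 genes. Directions given here are those of the log2 change, and the cause of the opposite signs is not known. Of the 143 gene names, 142 matched RefSeq names or synonyms. The text names the 12 genes with the most rows (every peak for the first 4), each called peak and gene, up to 4 members of each list, and the first 3 genes on each side of the threshold. The members and lists were chosen with earlier results of these data known. Peak sequences were not analysed here, since no genome of this build was used.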

Additional observations from a re-analysis of the deposited data

How the results depend on the processing

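Of 65 alternatives over 9 results, 57 left the value within its tolerance and 8 did not. Some could not move a value: no rows overlapped to be joined, and every member gene had a mean count above 200. The tolerance for the median m6A changes was 0.126 for bufalin and 0.111 for periplocin on the log2 scale, wider than the medians themselves. The count of 57 is therefore no measure of robustness. The count of 1 changed member under bufalin became 0 with 8 or more rows per gene, 0 with a fold enrichment of at least 2, 0 at an FDR of 0.01 and 0 with rows within 200 bases joined. The share of members overlapping the periplocin list was 94.8% with a fold enrichment of at least 2, and 77.7% where at least 50% of each peak had to be shared. The count of RNA calls under bufalin was 1 with 8 or more rows per gene, and under periplocin 1 without the giant linkers and scaffolds. Median m6A changes stayed between -0.03 and -0.01 for both compounds. Median RNA changes stayed between 0.05 and 0.06 for bufalin and between 0.04 and 0.05 for periplocin. Joining rows within 100 or 200 bases, restricting the range of mean counts, leaving out the giant linkers and limiting periplocin rows to 1 or 2 blocks were chosen after seeing the data. No paired analysis was possible because the tables hold 1 value per comparison and their columns carry no replicate numbers. For the same reason no replicate could be left out.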
